A study of Mus musculus with 27 samples.

Results

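Cardiac fibroblasts sorted from the juvenile mouse heart were compared with the whole heart at the same age, gene by gene, in 6 of the 27 samples of the series. The 6 samples were chosen by their labels alone, as every fibroblast and every heart sample of 4 weeks of age, and comprised 3 fibroblast and 3 whole heart samples. All came from C57Bl/6 mice, and no transgene, genotype change or treatment was named for either group. Fibroblasts were obtained by digesting ventricles, from which atria and valves had been removed, and by flow sorting cells that stained for PDGFRα, the receptor for platelet-derived growth factor encoded by Pdgfra. Whole heart RNA was taken from heart tissue, and no digestion or sorting was named for it. Cell type and preparation (digestion and sorting against none named) therefore cannot be told apart in any difference given here. The labels did not tie a fibroblast sample to a heart, and did not give the sex of the animals. In bulk RNA, fewer cells of a type and less RNA per cell cannot be told apart, and p-values cover the spread between these 3 and 3 samples only.

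Cardiac fibroblasts are the main source of the heart's extracellular matrix, a mesh of fibrillar collagens, proteoglycans, elastic fibres and basement membrane that carries load between muscle cells. Cardiomyocytes make up most of the mass of the heart and devote much of their RNA to sarcomere proteins, calcium handling and mitochondrial energy supply. Endothelial cells, mural cells of vessels and macrophages make up most of the remainder, and can be carried along in a sort.

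The fibroblast libraries held 73331948 to 74267683 counts over genes and the heart libraries 66863034 to 67984404. Of 22855 genes in both tables, 15378 passed the filter on low counts. Genes were called where the Benjamini-Hochberg adjusted p of edgeR's quasi-likelihood test was below 0.05. By this rule 6417 genes (41.7%) differed, of which 3208 genes (20.9% of those tested) were higher in fibroblasts and 3209 (20.9%) were lower. At this threshold 2649 were at least 2-fold higher and 2795 at least 2-fold lower. The 3 fibroblast libraries all lay above the 3 hearts for 4601 genes (29.9%) and all below them for 4431 (28.8%). The median log2 fold change was 0.04 over all genes tested, 1.76 over genes called higher and -2.30 over genes called lower. Scaling by library size alone shifted the median of all genes by 0.37 and moved the calls to 4389 higher and 2495 lower.

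Libraries of both groups stood apart from their replicates. The third fibroblast library carried more endothelial RNA, with 3336 CPM (counts scaled to library size with TMM factors) summed over 18 endothelial markers against 955.2 and 882.8 in the other fibroblast libraries and 2954 in the first heart. Relative to the other hearts, long transcripts were high in the first heart and low in the second. Exon length was rank-correlated with a gene's deviation in a library from the mean of the other libraries of its group. Over 11252 genes this correlation was 0.41, -0.40 and 0.12 in the 3 hearts and between -0.08 and 0.06 in fibroblasts. Over the same genes exon length and the log2 fold change of fibroblasts over hearts had a rank correlation of 0.27, given as a description, and the part of length in the differences was not tested. Without the third fibroblast library 2828 genes were higher and 3186 lower, and without the second heart 3026 and 2873. With both left out, 83.7% of the genes called higher and 83.2% of those called lower were called again in the same direction, and none was called in the other direction.

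**Figure D1:**
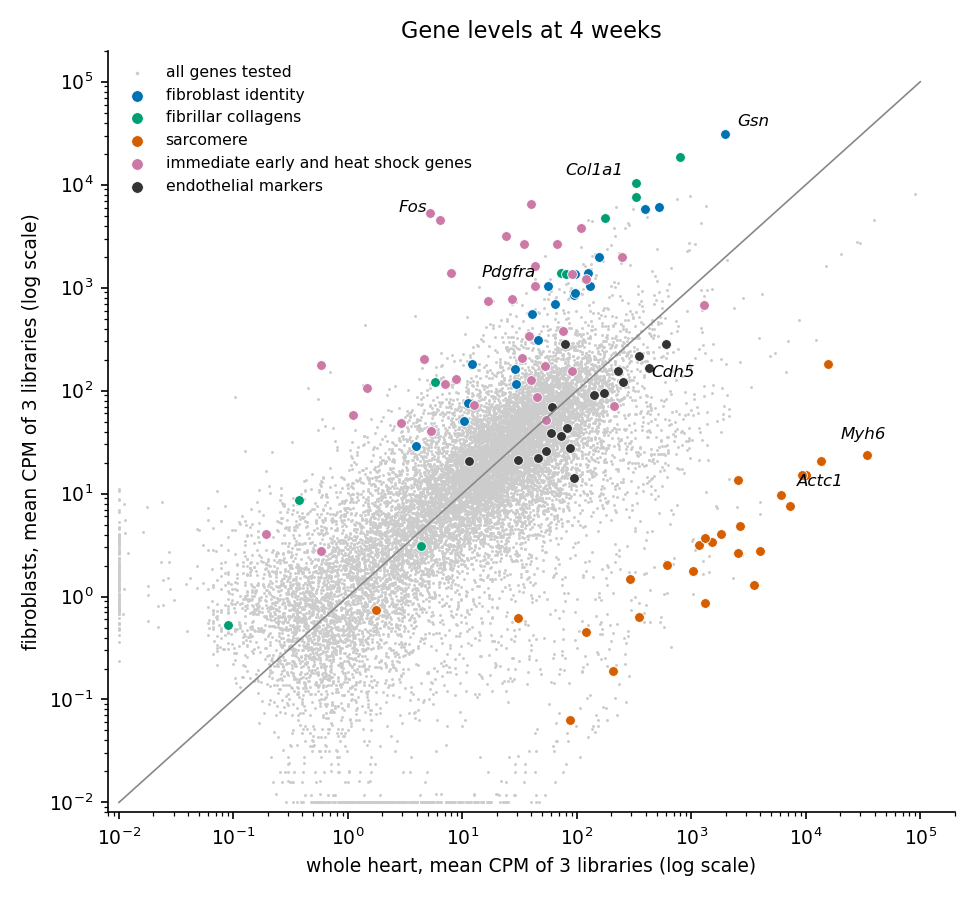
Mean level of each gene tested in 3 whole hearts (horizontal axis, CPM, log scale) and in 3 fibroblast libraries (vertical axis, CPM, log scale), with 5 gene lists coloured and means under 0.01 drawn at 0.01. The line marks equal levels. Fibroblast identity genes and fibrillar collagens lie mostly above it, sarcomere genes far below it.

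The gene used for the sort, Pdgfra (chr5:75152292-75198215, GRCm38), was at 1146, 1002 and 989 CPM in the 3 fibroblast libraries and at 55.9, 41.0 and 70.7 CPM in the 3 hearts. Every fibroblast library lay above every heart, with a log2 fold change of 4.23 (SE 0.25, edgeR adjusted p = 7.8e-06). Because the cells were sorted on this receptor, the difference checks the labels and is not an independent result. Myh6, the main myosin heavy chain of the adult mouse ventricle (chr14:54941921-54966927), was at 15.1, 15.6 and 39.7 CPM in fibroblasts and at 38398, 34214 and 30066 CPM in hearts. The fibroblast level was 0.0685% of the heart level (log2 fold change -10.51, SE 0.56, edgeR adjusted p = 5.0e-06). Col1a1, which encodes the alpha 1 chain of type I collagen (chr11:94936224-94953042), was at 10921, 11120 and 9113 CPM in fibroblasts and at 302.1, 332.7 and 344.4 CPM in hearts, a log2 fold change of 4.99 (SE 0.20, edgeR adjusted p = 2.0e-06). All 3 markers followed the labels in all 6 libraries.

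**Figure D2:**
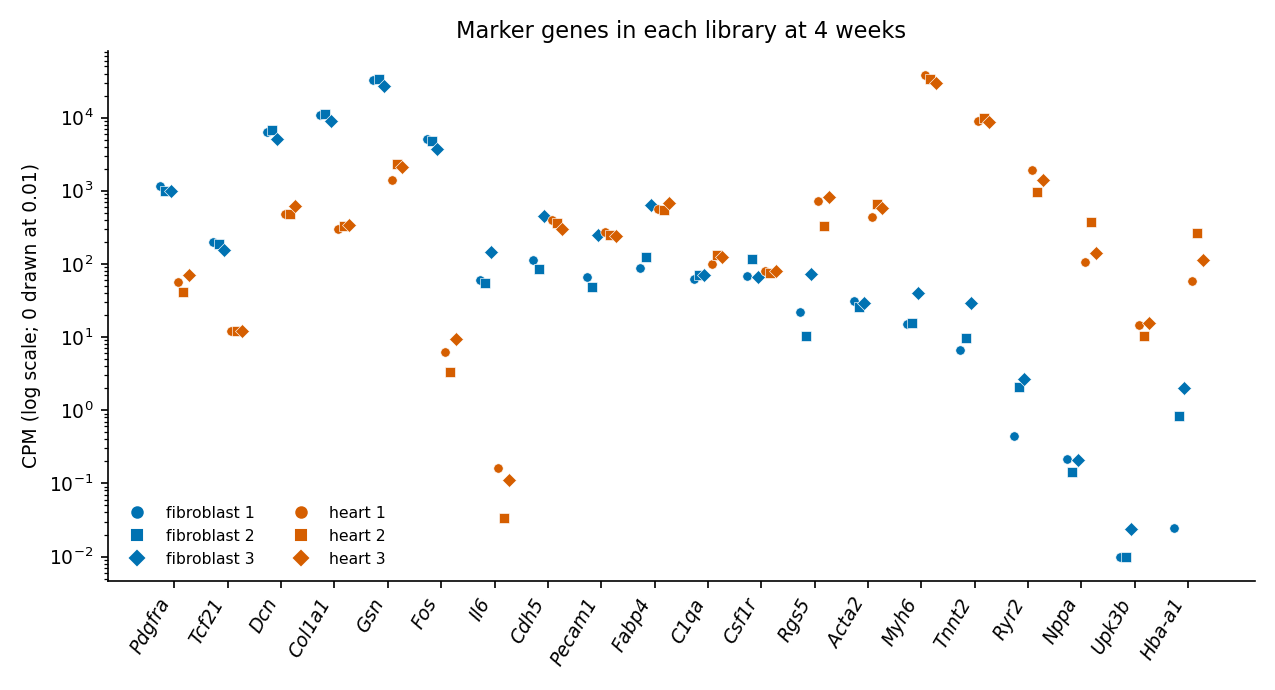
Level of 20 marker genes in each library at 4 weeks (vertical axis, CPM, log scale, 0 drawn at 0.01), with fibroblast libraries in blue and hearts in orange and a symbol for each replicate. Pdgfra, Tcf21, Dcn, Col1a1, Gsn, Fos and Il6 separate upward in fibroblasts, cardiomyocyte genes separate downward, and Cdh5, Pecam1 and Fabp4 reach the heart level in the third fibroblast library only.

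All 20 genes of a fibroblast identity list were tested and all 20 were higher in fibroblasts, with log2 fold changes from 1.97 (Meox1) to 4.23 (Pdgfra) and a median of 3.32. The list includes Pdgfra, whose direction was set by the sort. Gsn, which encodes the actin-severing protein gelsolin, was at 32365, 33662 and 27029 CPM in fibroblasts and at 1419, 2336 and 2105 CPM in hearts. It had the highest level per length of any gene in fibroblasts, 9825 ± 1113 RPKM (CPM per kilobase of exon; SD, n = 3) against 618.8 RPKM in hearts. Tcf21, a transcription factor of epicardium-derived fibroblasts, was at 201.2, 186.4 and 153.9 CPM against 12.1, 12.1 and 11.9 CPM. The 3 hearts differed from each other by far less than the distance to the lowest fibroblast library (log2 fold change 3.90, SE 0.19, edgeR adjusted p = 3.9e-06). Pi16, a peptidase inhibitor of adventitial fibroblasts, was at 2145, 1924 and 1927 CPM against 109.6, 167.3 and 193.1 CPM. Summed over the list, the share of all counts was 6.11% ± 0.608 in fibroblasts and 0.343% ± 0.0740 in hearts (SD, n = 3 each, two-sided exact permutation p = 0.1, the smallest that 3 against 3 allows). The sums were 55980, 57721 and 47312 CPM in the 3 fibroblast libraries, and Gsn alone supplied most of each.

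Fibrillar collagens, which form the load-bearing fibres, were the list with the highest median, 4.46 on the log2 scale. Of 11 listed genes 10 were tested, 8 were higher in fibroblasts, none was lower, and Col24a1 (2.52) and Col11a2 (-0.49) did not pass. Col3a1, the chain of type III collagen, was at 19167, 19956 and 16866 CPM against 702.6, 683.7 and 1015 CPM in hearts. Its log2 fold change of 4.54 (SE 0.24) was close to those of Col1a2 (4.51) and Col1a1. Col5a1, whose product nucleates fibrils, was at 4678, 5010 and 4447 CPM against 150.3, 176.9 and 199.1 CPM. No heart reached the lowest fibroblast library for any of these 4 genes. Fibrillar collagen genes held 5.03% ± 0.416 of all counts in fibroblasts and 0.158% ± 0.0332 in hearts.

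Among 26 tested non-fibrillar collagens 20 were higher and none was lower (median 3.64). The chains of type IV collagen, the sheet collagen of basement membranes, did not share a size of difference. Col4a1 was at 3972, 4197 and 4522 CPM in fibroblasts against 1354, 1109 and 1199 CPM in hearts, a log2 fold change of 1.79 (SE 0.17), and Col4a2 stood at 1.33. The minor chains Col4a3, Col4a4 and Col4a6 stood at 4.27, 4.47 and 4.58. Col4a6 was at 73.7, 61.9 and 66.0 CPM against 2.17, 2.17 and 4.11 CPM, so that its level in fibroblasts was far below that of Col4a1 although its difference was larger. Col15a1, a collagen of the outer basement membrane zone, and Col6a1, a chain of the microfibrillar type VI collagen, had log2 fold changes of 4.21 and 3.83.

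Enzymes that modify and cross-link collagen were higher in smaller steps. Of 24 tested, 21 were higher and none was lower, with a median of 2.5. The lysyl oxidase family, which cross-links collagen and elastin outside the cell, had log2 fold changes from 3.01 (Loxl3) to 4.43 (Loxl4). Loxl1 was at 1835, 1729 and 1260 CPM against 89.4, 141.9 and 123.8 CPM. The proteinase gene Adamts2, which removes the amino propeptide of procollagen, was at 1261, 1242 and 1100 CPM against 51.3, 49.5 and 73.6 CPM. Lower fold changes were found for some members. Serpinh1, the collagen chaperone HSP47, was at 1509, 1752 and 1375 CPM against 601.2, 718.8 and 667.5 CPM, a log2 fold change of 1.22 (SE 0.17). P4hb stood at 0.86, while Plod1 (0.08) and P4ha2 (0.42) did not pass. Both passed with scaling by library size alone (0.45 and 0.79), when all 24 genes were higher.

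The remaining matrix lists were higher as groups. For the small leucine-rich proteoglycans, which bind collagen fibrils and set their diameter, 9 of 10 tested genes were higher (median 3.56). Dcn was at 6358, 6852 and 5132 CPM against 477.1, 484.8 and 616.5 CPM, and Fmod (1.01) did not pass. Fmod passed without the second heart (1.44, edgeR adjusted p = 0.0244) and with scaling by library size alone (1.39, 0.0241). All 17 elastic fibre genes were tested and all 17 were higher (median 3.28). Fbn1, the fibrillin of microfibrils, was at 4888, 4341 and 4092 CPM against 159.9, 107.1 and 138.1 CPM, a log2 fold change of 5.04 (SE 0.23). Eln, elastin itself, was at 4103, 3817 and 3594 CPM against 240.1, 196.3 and 201.2 CPM. In both cases the libraries of the groups were far apart and the spread within fibroblasts was small. A share of 20.1% of the Fbn1 exon bases was also covered by an annotated gene on the other strand, from which its reads cannot be separated if strand was not counted.

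Of 17 tested matricellular and adhesive glycoproteins 14 were higher (median 3.41), and Vtn was lower. Tnxb, the tenascin that spaces collagen fibrils, was at 4671, 4316 and 4652 CPM against 118.3, 112.1 and 142.6 CPM. Its log2 fold change of 5.19 (SE 0.20) was exceeded within the list by Thbs1 (6.19). Vtn, vitronectin, a plasma adhesion protein and a marker of pericytes, was at 1.31, 0.0238 and 1.68 CPM against 36.4, 57.5 and 45.4 CPM (log2 fold change -5.53, SE 1.04, edgeR adjusted p = 0.00327). Among 14 tested laminins, nidogens and basement membrane proteoglycans 11 were higher (median 2.55) and Lama5 and Lamb3 were lower. Lamc1 was at 5779, 5865 and 5596 CPM against 411.7, 345.6 and 417.7 CPM. Lama5, a laminin chain of vessel and mesothelial basement membranes, was at 20.8, 14.7 and 64.0 CPM against 144.5, 119.1 and 115.5 CPM, with the highest fibroblast value in the third library. The Lama5 call was lost without the first fibroblast library (adjusted p = 0.0602 in edgeR) or the first heart (0.0527).

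Matrix proteases and their inhibitors divided. Of 18 tested, 9 were higher, Mmp15 and Timp4 were lower and 7 did not pass. Mmp2, the gelatinase of mesenchymal cells, was at 2528, 2531 and 2015 CPM against 141.1, 204.7 and 206.5 CPM, and its membrane-bound activator Mmp14 was at 607.9, 643.9 and 344.0 CPM against 34.1, 41.4 and 43.8 CPM. The inhibitor genes Timp1, Timp2 and Timp3 were higher by 4.4, 3.43 and 2.06 on the log2 scale. Another gene on the other strand covered 21.3% of the Timp3 exon bases. Timp4 was at 9.37, 2.63 and 16.6 CPM against 61.5, 38.1 and 35.9 CPM, and Mmp15 at 27.4, 32.7 and 46.4 CPM against 262.6, 340.4 and 222.0 CPM. Both lay below every heart in every fibroblast library. The Timp4 call was lost without the first fibroblast library (edgeR adjusted p = 0.0556) or the first heart (0.0595).

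**Figure D3:**
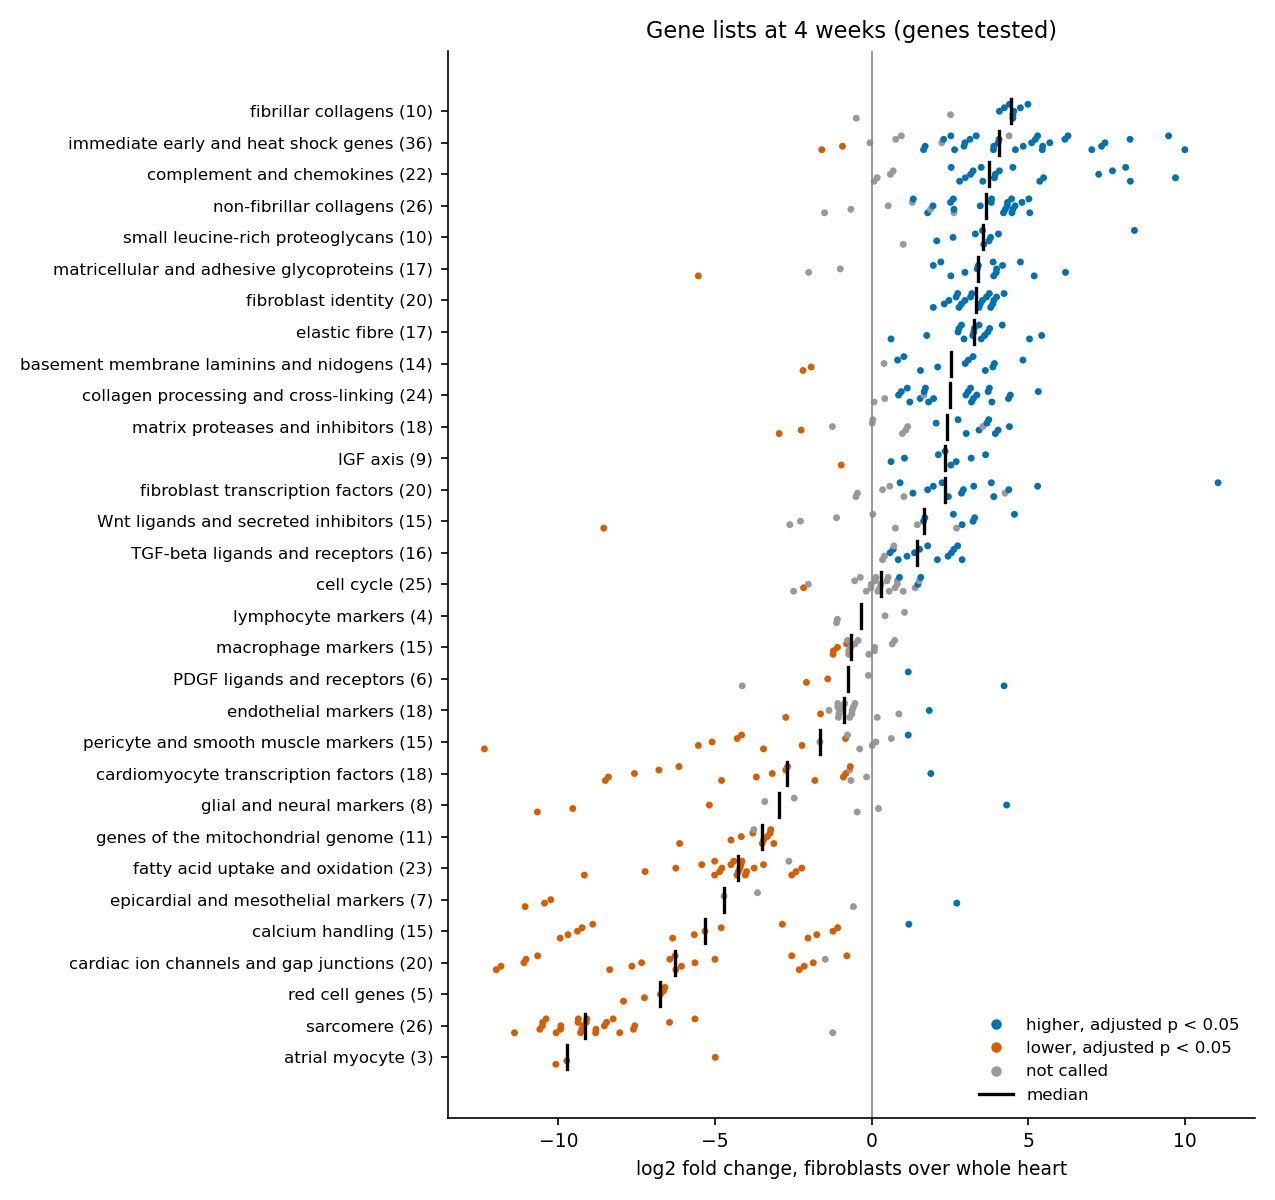
Log2 fold change of fibroblasts over whole heart at 4 weeks (horizontal axis) for the tested genes of 31 lists, with the number tested in brackets, the colour giving the call at an adjusted p under 0.05 and the black bar the median. Medians run from -9.73 (atrial myocyte genes) to 4.46 (fibrillar collagens), and values of genes with 0 counts in a whole group depend on the prior count of the fit.

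Among signalling genes, the PDGF receptors Pdgfra and Pdgfrb were higher in fibroblasts and the ligands Pdgfa and Pdgfb were lower. The ligands Pdgfc (-4.13) and Pdgfd (-0.10) did not pass. Because the cells were sorted on Pdgfra, its place on the higher side was set in advance. Pdgfrb was at 329.6, 273.1 and 264.3 CPM against 115.1, 122.8 and 146.8 CPM (log2 fold change 1.17, SE 0.18, edgeR adjusted p = 0.00116). Pdgfa was at 7.66, 8.55 and 4.57 CPM against 29.0, 30.8 and 28.3 CPM (log2 fold change -2.08, SE 0.31, edgeR adjusted p = 9.5e-04). A gene on the other strand covered 26.1% of the Pdgfa exon bases, the same limit on counting as for Fbn1. Pdgfb, a ligand made by endothelium, was at 8.99, 18.0 and 35.4 CPM against 52.4, 61.2 and 51.6 CPM, highest among fibroblasts in the third library. The call for Pdgfb was the weakest of the 4, with an adjusted p of 0.0333. It was lost without the second fibroblast library (0.101) or without any one of the hearts (0.0765, 0.0944 and 0.0783 in order of replicate), and with scaling by library size alone (0.0956). Pdgfc passed without the third fibroblast library (log2 fold change -10.42, edgeR adjusted p = 0.00947).

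Of 16 TGF-beta ligands, receptors and signal transducers 13 were higher in fibroblasts and none was lower (median 1.45). Tgfbr2, the type II receptor, was at 458.9, 409.0 and 338.1 CPM against 74.1, 61.9 and 69.7 CPM, a log2 fold change of 2.55 (SE 0.19). Among the ligands Tgfb2 (2.89) and Tgfb3 (2.75) were higher and Tgfb1 (0.71) did not pass. Tgfb1 passed without the second heart (1.00, edgeR adjusted p = 0.0108) and with scaling by library size alone (1.08, 0.0111). Of 15 tested Wnt ligands and secreted inhibitors 7 were higher, and the inhibitors led. Sfrp1 was at 480.1, 451.0 and 383.8 CPM against 18.6, 15.2 and 21.9 CPM (log2 fold change 4.56, SE 0.22). Sfrp5, a relative of Sfrp1, was lower, with 1 count in the fibroblast libraries together against 2.85, 2.75 and 0.806 CPM in hearts. The fold for Sfrp5 was 529.4 with a 95% counting interval from 94.4 to 20964.

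In the IGF axis 8 of 9 tested genes were higher and Igf2 was lower. Igf1, the growth factor itself, was at 357.9, 382.2 and 248.5 CPM against 29.5, 12.9 and 36.8 CPM (log2 fold change 3.64, SE 0.40, edgeR adjusted p = 1.8e-04). Igf2, an imprinted fetal growth factor, was at 69.4, 75.6 and 110.1 CPM against 147.4, 167.9 and 182.9 CPM (log2 fold change -0.97, SE 0.22, edgeR adjusted p = 0.00831). The libraries of the groups did not overlap for either ligand. With scaling by library size alone the Igf2 call was lost (-0.59, edgeR adjusted p = 0.0721). Another annotated gene on the same strand covered 62.8% of the Igf2 exon bases, so the Igf2 value carries an uncertainty from counting. Binding proteins ranged from Igfbp5 (0.62) to Igfbp4 (3.18), all called higher except Igfbp2, which had no counts in any library. The Igfbp5 call held only when the third fibroblast library was the one left out, with edgeR adjusted p from 0.0581 to 0.163 under the other 5 omissions.

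Of 22 tested complement and chemokine genes 18 were higher and none was lower (median 3.74). C3, the central complement component, was at 917.6, 932.5 and 930.2 CPM against 50.9, 55.2 and 74.0 CPM, and Serping1, which inhibits the first complement protease, at 1607, 1548 and 1365 CPM against 111.8, 146.7 and 126.1 CPM. Their log2 fold changes were 3.95 (SE 0.21) and 3.55 (SE 0.19). Il6 (chr5:30013114-30019981) was at 59.5, 54.1 and 145.3 CPM against 0.163, 0.0333 and 0.113 CPM, a log2 fold change of 9.70 (SE 0.68, edgeR adjusted p = 1.6e-05). Cxcl1, which attracts neutrophils, was at 378.6, 314.5 and 616.7 CPM against 0.307, 2.62 and 1.32 CPM (log2 fold change 8.26, SE 0.78). Both were highest in the third fibroblast library, and no heart came near the lowest one. Cxcl12, the ligand of Cxcr4, did not pass (0.60). It passed without the second fibroblast library (0.81, edgeR adjusted p = 0.0296) and with scaling by library size alone (0.98, 0.0115).

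Immediate early genes, which are transcribed within minutes of growth factor exposure or of cell handling, and heat shock genes formed the list with the next-highest median, 4.06. Of 36 genes, all tested, 29 were higher in fibroblasts and the chaperone genes Hspa8 (-0.93) and Hspb1 (-1.59) were lower. Fos (chr12:85473890-85477273) was at 5099, 4780 and 3728 CPM in fibroblasts and at 6.20, 3.32 and 9.54 CPM in hearts, a log2 fold change of 9.48 (SE 0.50, edgeR adjusted p = 4.9e-06). Per length it was the sixth gene of the fibroblast libraries, at 1928 ± 305.1 RPKM against 2.70 RPKM in hearts. Fosb was at 5465, 4494 and 6108 CPM against 5.84, 5.15 and 4.74 CPM (1022-fold by the means), and Jun at 4168, 3714 and 3454 CPM against 90.9, 135.7 and 100.9 CPM (log2 fold change 5.11, SE 0.24). These genes were high in every fibroblast library and low in every heart. Hspa1a, an inducible chaperone that shares near-identical sequence with Hspa1b, was at 44.5, 44.6 and 57.0 CPM against 0.686, 3.05 and 4.93 CPM. The list held 4.78% of all counts in fibroblasts and 0.252% in hearts. No digestion or sorting was named for the hearts, and the part of that handling in these differences was not tested.

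The 12 genes with the largest difference on the higher side, among those with a mean of at least 10 CPM in fibroblasts and no overlap between groups, were Id4, Fosb, Il6, Fos, Cxcl1, Egr2, Has1, Tnfaip6, Cxcl2, Socs3, Egr1 and Ptx3. None encodes a collagen. Has1, a hyaluronan synthase, was at 62.2, 57.0 and 202.0 CPM against 0.0361, 1.22 and 0.0967 CPM. Tnfaip6 and Ptx3 encode secreted proteins that bind hyaluronan-rich matrix in inflammation. Tnfaip6 was at 113.1, 113.9 and 230.2 CPM against 0.108, 1.6 and 0.371 CPM, and Ptx3 at 46.1, 53.0 and 151.6 CPM against 0.108, 0.317 and 1.23 CPM. All 3 were highest in the third fibroblast library, as Il6 and Cxcl1 were. Socs3, a feedback inhibitor of cytokine signalling, was even across libraries, with 1321, 1282 and 1606 CPM against 8.35, 7.5 and 8.25 CPM. Id4, an inhibitor of basic helix-loop-helix factors, was at 15.3, 3.41 and 14.9 CPM and had 1 count over the 3 hearts, a fold of 1985 with a 95% counting interval from 356.0 to 78427. Of the genes called higher, 329 (10.3%) exceeded the largest log2 fold change of the fibroblast identity list, 4.23 for the sort gene Pdgfra. Of those, 16 were on the immediate early list.

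Transcription factors of fibroblasts and of cardiomyocytes were listed separately. Of 20 fibroblast factors, all tested, 14 were higher and none was lower (median 2.35). Klf4, a factor that is also an immediate early gene, was at 2482, 2250 and 3218 CPM against 56.2, 73.2 and 73.0 CPM. Osr2 had no counts in the hearts and 1.85, 3.30 and 6.04 CPM in fibroblasts, at least 73.3-fold higher against a floor of 3 counts per library. Of 18 tested cardiomyocyte factors 14 were lower in fibroblasts and 1, Tbx20, was higher. Nkx2-5, a homeobox factor of cardiac muscle, was at 0.0484, 1.04 and 0.376 CPM against 137.4, 200.7 and 159.0 CPM (log2 fold change -8.40, SE 0.88, edgeR adjusted p = 1.3e-04). Other factors of the same list were present at a large part of the heart level. Gata4 was at 128.4, 94.8 and 88.5 CPM against 147.8, 205.0 and 146.8 CPM, 62.4% of the heart mean (log2 fold change -0.68, SE 0.22, edgeR adjusted p = 0.0386). Tbx20 was at 396.2, 424.2 and 262.8 CPM against 119.3, 55.6 and 116.9 CPM (log2 fold change 1.89, SE 0.33, edgeR adjusted p = 0.00215), above every heart in every fibroblast library. Gata6 (-0.16), Mef2a (-0.66) and Mef2c (-0.70) did not pass. The Gata4 call was lost without the second or the third fibroblast library (edgeR adjusted p = 0.127 and 0.107) and without the second or the third heart (0.0855 and 0.0534), and with scaling by library size alone (-0.31, 0.313). Gata6 then turned to 0.22, not called. Without the second heart Mef2a (-0.91) and Mef2c (-0.97) passed as lower.

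On the depleted side sarcomere genes differed most among the larger lists. All 26 were tested, 25 were lower in fibroblasts and Tnni1, the fetal troponin I (-1.24), did not pass, with a median log2 fold change of -9.16. They held 10.65% of all counts in hearts and 0.0364% in fibroblasts. Actc1, cardiac actin, was at 16.4, 8.61 and 36.6 CPM in fibroblasts and 11797, 17087 and 11618 CPM in hearts, and Myl2, the ventricular light chain, at 10.5, 11.8 and 23.2 CPM against 8155, 13036 and 9079 CPM. In each case the third fibroblast library had the most, and still less than 1% of any heart. The median level over the list was 0.0888%, 0.0791% and 0.306% of the heart mean in the 3 fibroblast libraries.

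Promoter stretches are shown for genes from the ends of this comparison, since the CArG box, the motif read by serum response factor, occurs both in immediate early and in muscle promoters. Each line runs 5′ to 3′ on the gene's strand, upstream of a RefSeq transcription start (GRCm38.p6), with the match in capitals and 20 flanking bases on either side.
Actc1, chr2:114052893-114052942, minus strand: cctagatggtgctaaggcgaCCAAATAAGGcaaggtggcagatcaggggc
Acta1, chr8:123894819-123894868, minus strand: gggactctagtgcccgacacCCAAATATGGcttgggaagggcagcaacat
Myl3, chr9:110763573-110763622, plus strand: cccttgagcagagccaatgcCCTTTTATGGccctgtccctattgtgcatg
Egr2, chr10:67537474-67537523, plus strand: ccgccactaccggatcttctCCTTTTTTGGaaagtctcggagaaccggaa
Zfp36, chr7:28379257-28379306, minus strand: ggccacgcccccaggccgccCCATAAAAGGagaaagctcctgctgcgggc

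Of these genes, Actc1, Acta1 and Myl3 were lower in fibroblasts (log2 fold changes -9.36, -8.04 and -9.92) and Egr2 and Zfp36 were higher (8.25 and 6.27). Egr2, a zinc finger factor, was at 151.1, 150.4 and 233.7 CPM against 0.632, 0.967 and 0.161 CPM, and Zfp36, which destabilises cytokine mRNA, at 2629, 2254 and 3106 CPM against 32.8, 43.6 and 27.3 CPM. The same motif thus stood within 100 bases of the start of genes from both ends. In the 250 bases upstream, on either strand, a CArG box was found in 7 of 31 promoter windows of sarcomere genes (22.6%), in 5 of 39 of immediate early and heat shock genes (12.8%) and in 0 of 8 of fibrillar collagen genes, against 1.16% of 13739 windows of all tested genes with an entry. Over the whole comparison its share was 1.10% in windows of genes called higher and 1.54% in windows of genes called lower. Windows of a gene with several starts overlap, so they are not independent. The 5 immediate early windows with the box came only from Egr2 and Zfp36, and most were overlapping windows of Egr2.

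The site of MEF2, a factor of muscle genes, was likewise searched and is shown for genes of both kinds.
Mybpc3, chr2:91118034-91118083, plus strand: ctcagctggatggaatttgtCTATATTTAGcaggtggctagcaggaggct
Casq2, chr3:102086326-102086375, plus strand: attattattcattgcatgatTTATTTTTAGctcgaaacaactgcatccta
Jun, chr4:95052226-95052275, minus strand: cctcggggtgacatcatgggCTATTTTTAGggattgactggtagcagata
Mybpc3, the myosin-binding protein of the sarcomere, was at 1.67, 3.16 and 3.42 CPM in fibroblasts against 3498, 4847 and 3587 CPM in hearts, whereas Jun was on the higher side. MEF2 sites were found in 2.72% of windows of genes called lower, 1.53% of those of genes called higher and 1.74% of all windows. The box CCAAT was in 32.4%, 34.4% and 34.6% of windows of genes called higher, of genes called lower and of all, and TATAAA in 7.01%, 6.46% and 6.65%. These shares describe letters in a window and say nothing of a factor's binding.

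Calcium handling genes ranged more widely than sarcomere genes. Of 15, all tested, 14 were lower in fibroblasts (median -5.32) and Itpr2 was higher. Ryr2, the calcium release channel, was at 0.448, 2.10 and 2.69 CPM against 1935, 973.9 and 1411 CPM (log2 fold change -9.69, SE 0.77). Atp2a2, the calcium pump of the reticulum, which nonmuscle cells also use, was at 344.5, 329.0 and 255.7 CPM against 14284, 11807 and 11060 CPM, 2.501% of the heart level. Pln, the inhibitor of that pump, was at 7.13, 3.82 and 14.1 CPM against 4445, 3472 and 4020 CPM, 0.210% of the heart level. The pump thus remained at a larger share of its heart level than its inhibitor did. Genes on the other strand covered 64.7% of the Pln exon bases. Itpr2, an inositol trisphosphate receptor, was at 60.8, 67.3 and 80.6 CPM against 33.1, 31.5 and 27.1 CPM (log2 fold change 1.19, SE 0.20, edgeR adjusted p = 0.00167).

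Of 20 tested cardiac ion channels and gap junction genes 19 were lower (median -6.26) and Gja5 (-1.48) did not pass. Gja1, connexin 43, was at 35.5, 43.9 and 141.0 CPM against 459.5, 433.4 and 400.9 CPM, 17.03% of the heart level, with most in the third fibroblast library (log2 fold change -2.55, SE 0.50, edgeR adjusted p = 0.00401). The atrial genes Nppa, Myl7 and Myl4 were all lower, though a gene on the other strand covered 61.5% of the Nppa exon bases. Myl7 was at 0.0484, 0.0476 and 0.0587 CPM in fibroblasts and at 31.8, 100.3 and 3.83 CPM in hearts, so that its level varied between hearts more than that of ventricular genes. Sln and Bmp10 were too low to test. Atria were removed before the fibroblasts were isolated, so that cell type and the parts of the heart sampled cannot be told apart for these genes.

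Energy supply genes were lower with smaller fold changes. Of 23 genes of fatty acid uptake and oxidation, all tested, 22 were lower (median -4.25). Cpt1b (-2.64) did not pass, and another annotated gene on its strand covered 81.4% of its exon bases. Fabp3, the muscle fatty acid carrier, was at 2.53, 1.67 and 3.25 CPM against 1264, 1724 and 1299 CPM. Lpl, the lipase that frees fatty acids from lipoproteins, was at 895.7, 978.9 and 755.7 CPM against 5057, 3207 and 4077 CPM and kept 21.3% of the heart level. The enzymes of beta oxidation lay between these, as with Hadha at 6.29% of the heart level (99.7, 102.3 and 82.7 CPM against 1458, 1730 and 1340 CPM). Of 11 tested genes of the mitochondrial genome 10 were lower (median -3.49). Its genes as counted held 2.57% ± 1.01 of the counts in fibroblasts and 20.6% ± 5.95 in hearts (SD, n = 3 each, two-sided exact permutation p = 0.1, the smallest possible). In the 3 hearts mt-Co2 had 146, 8 and 27 counts and mt-Atp6 68, 3 and 3, too low to test, whereas mt-Co1 was at 58562 RPKM. The share is therefore uncertain as a measure of the whole mitochondrial genome, and why those genes were low was not tested.

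Muscle and broadly expressed members of 24 gene families were set against each other per length, as the muscle gene's percent of the summed RPKM of the pair. The muscle member was lower in fibroblasts in 23 pairs, and the broad member was higher in 12, lower in 9 and not called in 3. Muscle members made up over 50% of the pair in 21 pairs in hearts and in 3 in fibroblasts, and the share was lower in fibroblasts in 23 of the 24. Actc1 made up 1.56% ± 1.30 of the pair with cytoplasmic actin, Actb, in fibroblasts and 95.8% ± 0.688 in hearts (SD, n = 3). For the translation factors Eef1a2 and Eef1a1 the muscle share was 0.346% ± 0.186 against 64.2% ± 2.90, with Eef1a1 itself higher in fibroblasts (log2 fold change 1.29). Actb and Eef1a1 have near-identical copies elsewhere in the genome, so their counts are uncertain. For Des and Vim, intermediate filament genes of muscle and of mesenchyme, it was 0.705% ± 0.274 against 86.4% ± 2.82.

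In some metabolic pairs both members were lower. Ldhb made up 10.7% ± 0.652 of the lactate dehydrogenase pair in fibroblasts and 74.5% ± 1.03 in hearts, while Ldha also was lower (-2.39). Cox6a2, the muscle subunit 6A of cytochrome c oxidase, made up 4.13% ± 2.46 against 95.3% ± 0.734, with Cox6a1 lower by less (-1.21). Atp2a2 remained the main pump of its pair in both tissues, at 84.3% ± 3.26 and 99.8% ± 0.0404.

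**Figure D4:**
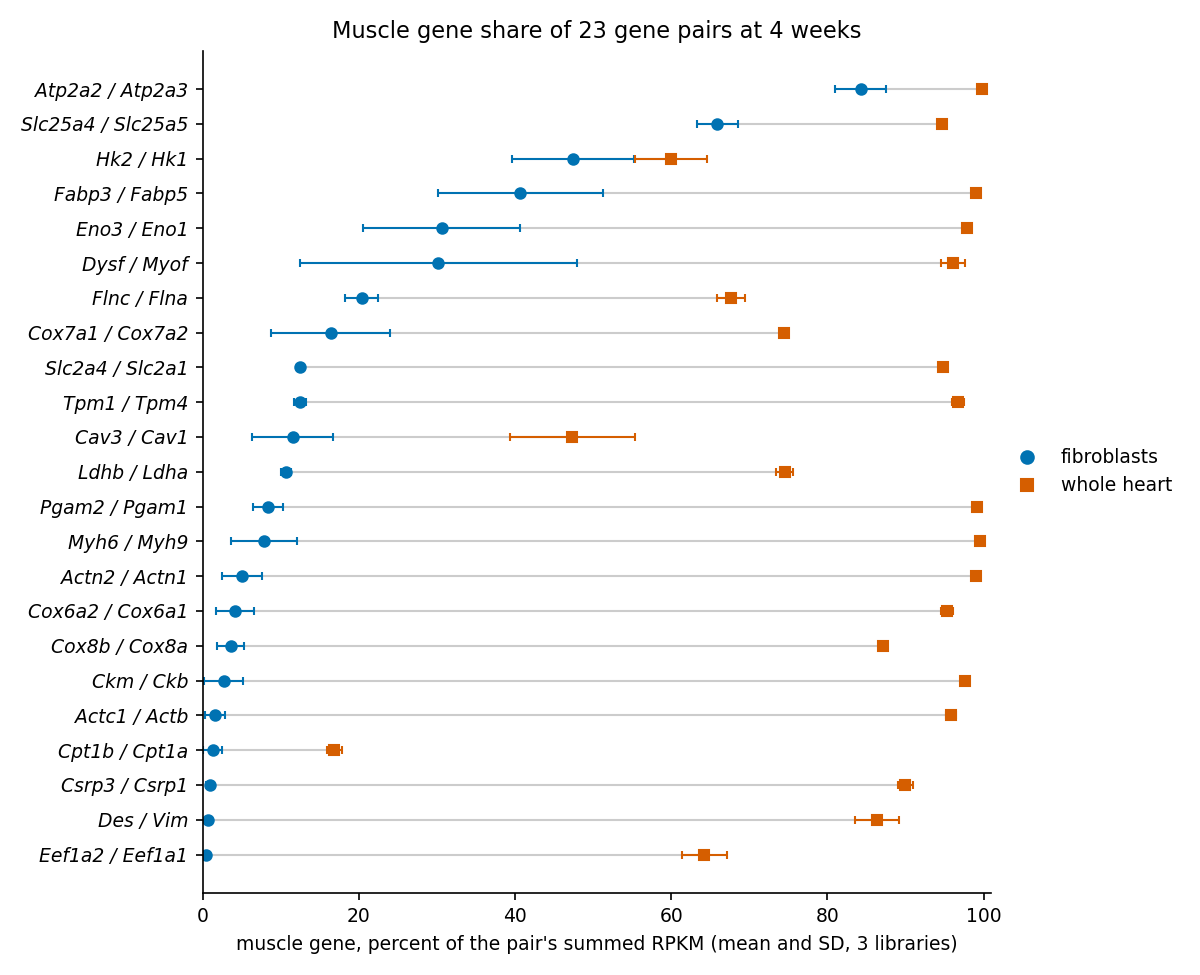
Percent of the summed RPKM of a gene pair that comes from the muscle member (horizontal axis), for 23 pairs named as muscle / broad gene, as mean and SD over 3 fibroblast libraries (circles) and 3 hearts (squares). The share is lower in fibroblasts in each of the 23 pairs drawn.

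The 12 genes with the largest difference on the lower side, chosen by the mirror rule, were Osbp2, Fn3k, 2210407C18Rik, Aqp4, Tecrl, Abcc8, Itgb6, Hrasls, Kcnj12, Kcnd2, Lgr6 and Kcnj3. Myosin and troponin genes were not among them. Osbp2, an oxysterol-binding protein gene (chr11:3703731-3863903), had no counts in fibroblasts and 19.8, 26.6 and 21.1 CPM in hearts, and was at least 630.1-fold lower against the floor of 3 counts per library. Fn3k, a kinase that removes sugars from glycated proteins, had none against 17.2, 24.8 and 21.5 CPM, at least 591.7-fold lower. Aqp4, a water channel, had none against 22.02, 7.33 and 11.01 CPM, at least 376.3-fold lower. All 3 genes were counted in every heart.

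Of the 12, Kcnj12, Kcnd2 and Kcnj3 encode potassium channels. For Kcnj3, a gene on the other strand covered 31.1% of the exon bases. Abcc8, the sulphonylurea receptor that pairs with the channel of Kcnj11, had 2 counts over the fibroblast libraries against 55.03, 48.3 and 37.2 CPM in hearts, a fold of 5858 with a 95% counting interval from 1621 to 48378. Kcnj12, an inward rectifier, had 2 counts against 44.1, 35.7 and 38.5 CPM, and Kcnd2, a channel of the transient outward current, 1 count against 35.0, 9.68 and 24.7 CPM. Tecrl, a reductase-like gene of cardiomyocytes, had 1 count against 47.7, 29.1 and 55 CPM, a fold of 11070 with an interval from 1986 to 437289. Intervals and floors cover counting error only. Over all tested genes, 147 had no counts in any fibroblast library, 6 of them with a heart mean of at least 10 CPM, and 103 had none in any heart.

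Markers of other cell types were listed as a check on the sort. Of 18 endothelial genes, all tested, Vwf and Sox18 were lower, Tek was higher and 15 did not pass (median -0.89). Cdh5, the cadherin of endothelial junctions, was at 112.6, 84.9 and 450.5 CPM in fibroblasts and at 396.7, 356.9 and 295.8 CPM in hearts. Fabp4, a carrier of capillary endothelium, was at 86.8, 125.8 and 630.9 CPM against 561.7, 541.4 and 685.1 CPM. The third fibroblast library reached the heart level for both and the others did not. Without it, 16 of 18 genes were lower and the median was -2.05, so the endothelial result rests on that library. Cdh5 was then lower by a log2 fold change of -1.82 (edgeR adjusted p = 7.7e-04) and Fabp4 by -2.48 (2.4e-04). Tek, an angiopoietin receptor, was at 266.6, 264.2 and 319.9 CPM against 90.8, 59.9 and 86.7 CPM and was even across the fibroblast libraries.

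Mural cell markers were lower in part. Of 15, all tested, 8 were lower, Pdgfrb was higher and 6 did not pass (median -1.65). Rgs5, a pericyte gene, was at 21.9, 10.3 and 73.7 CPM against 727.8, 331.8 and 820.5 CPM, and Acta2, smooth muscle actin, at 31.4, 25.6 and 29.1 CPM against 434.3, 661.5 and 583.4 CPM. Both were near 5% of the heart level, at 5.63% and 5.13%. Higd1b, another pericyte gene, had no counts in fibroblasts and was at least 257.6-fold lower. Myh11 (-0.38), Tagln (-0.77) and Smtn (0.14) did not pass. Smtn passed as higher with scaling by library size alone (0.51, edgeR adjusted p = 0.0254).

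Macrophage genes lay near the heart level. Of 15, all tested, C1qa, C1qb, Fcer1g and Tyrobp were lower, none was higher and 11 did not pass (median -0.67). With scaling by library size alone none of the 15 was lower, 2 were higher and the median was -0.30, so the calls of this list turned with the scaling. C1qa was at 62.2, 71.1 and 69.5 CPM against 99.7, 131.1 and 123.6 CPM, and Lyz2 at 66.1, 139.6 and 102.4 CPM against 136.7, 166.8 and 185.8 CPM, overlapping between groups. Summed over the list, the 3 fibroblast libraries held 398.4, 711.7 and 569.5 CPM and the 3 hearts 675.5, 804.1 and 878.6 CPM. The part of macrophages in the complement differences above was not tested. Of 4 tested lymphocyte genes none was called. Without the first fibroblast library C1qb, Fcer1g and Tyrobp were no longer called (edgeR adjusted p = 0.0520, 0.0536 and 0.0720), and C1qa was. The Tyrobp call was also lost without the third fibroblast library (edgeR adjusted p = 0.0606) or the second heart (0.0664). Fcer1g was also lost without the third heart (edgeR adjusted p = 0.0739). Lyz2 passed without the second fibroblast library (-0.95, edgeR adjusted p = 0.0329).

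Of 7 tested epicardial and mesothelial genes 3 were lower, 1 was higher and 3 did not pass (median -4.71). The median level over the list was 0%, 0.102% and 11.3% of the heart mean in the 3 fibroblast libraries. Summed over the list, the mean was 117.4 CPM in fibroblasts and 69.0 CPM in hearts. The mesothelial genes Upk3b and Msln had 2 counts each over the fibroblast libraries. Aldh1a2, a retinoic acid enzyme of epicardium, was higher at 132.8, 133.0 and 59.6 CPM against 11.7, 14.8 and 22.8 CPM. Wt1, an epicardial factor, was at 2.59, 4.54 and 18.4 CPM against 10.8, 12.2 and 15.3 CPM and did not pass (-0.58). Without the third fibroblast library Wt1 was lower (-1.83, edgeR adjusted p = 0.0187). Of 8 tested glial genes 3 were lower and Cdh19, a Schwann lineage cadherin, was higher at 18.9, 20.2 and 32.6 CPM against 1.43, 0 and 2.19 CPM, while Sox10, the defining factor of that lineage, had no counts in fibroblasts. The Cdh19 call was lost without the third fibroblast library (edgeR adjusted p = 0.0512) or the first heart (0.0633). All 5 tested red cell genes were lower (median -6.74), though globin genes have near-identical copies and their counts are uncertain.

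**Figure D5:**
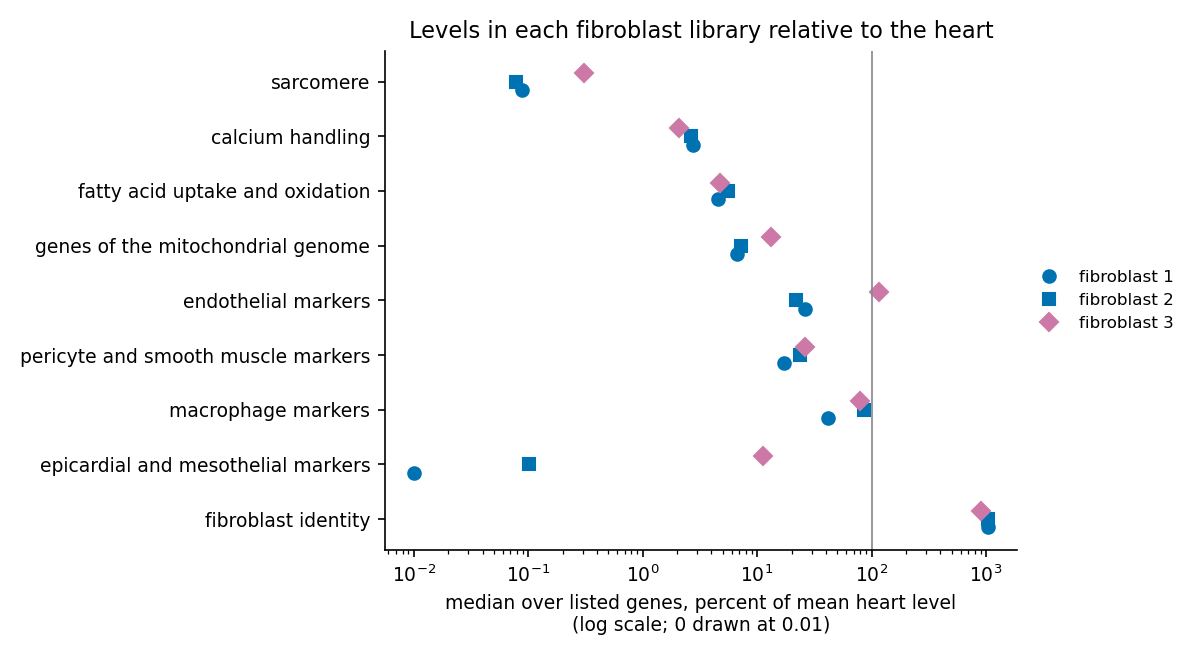
Median level of the genes of 9 lists in each fibroblast library, as percent of the mean heart level (horizontal axis, log scale, 0 drawn at 0.01). The line marks the heart level, and the third library stands apart for sarcomere, mitochondrial, endothelial and mesothelial genes.

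Few proliferation genes were called. Of 25 cell cycle genes, all tested, Foxm1, Mcm4 and Mcm6 were higher, Cenpa was lower and 21 did not pass (median 0.30). Summed over the list they held 0.0304%, 0.0296% and 0.0482% of the counts in fibroblasts and 0.0205%, 0.0189% and 0.0253% in hearts, with no overlap (two-sided exact permutation p = 0.1, the smallest possible). On the TMM scale the sums were 269.7, 259.0 and 420.7 CPM against 248.2, 213.9 and 273.9 CPM and overlapped. Mki67, the gene of the proliferation antigen Ki67, was at 47.2, 19.1 and 60.2 CPM in fibroblasts and at 32.7, 7.03 and 23.3 CPM in hearts, with overlap between groups (log2 fold change 1.01, SE 0.58, edgeR adjusted p = 0.21). Mcm6, a subunit of the replicative helicase, was at 16.2, 29.0 and 31.4 CPM against 12.7, 15.3 and 13.4 CPM, just past the threshold (edgeR adjusted p = 0.0496). The Mcm6 call was lost in 5 of the 6 omissions of a single library, and Foxm1 was lost without the first or the third fibroblast library (edgeR adjusted p = 0.0597 and 0.0528). A p that misses the threshold does not show equal levels.

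The difference between fibroblasts and heart was then set against the same difference at postnatal day 1, as an interaction in a fit over all 27 libraries and 20650 genes. It was larger (further toward fibroblasts) at 4 weeks for 657 genes (3.18%) and smaller (further toward hearts) for 818 (3.96%). Among 26 sarcomere genes 19 were smaller and 1 was larger, with a median shift of -2.74, and the level in both tissues moved. Summed sarcomere CPM was 69872 in hearts and 1212 in fibroblasts at postnatal day 1, against 117041 in hearts and 311.0 in fibroblasts at 4 weeks. Of 20 tested fibroblast identity genes 2 were larger and none smaller, while their summed level in fibroblasts was 12336 CPM at postnatal day 1 and 52277 at 4 weeks and the heart sum 1391 and 3745 CPM. At 4 weeks Gsn supplied most of that fibroblast sum.

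Complement and chemokine genes were larger at 4 weeks for 6 of 25, with summed levels of 761.7 and 5088 CPM in fibroblasts at the earlier and later age. Fibrillar collagens were neither larger nor smaller for any of 11 genes, at 59571 and 43039 CPM in fibroblasts and 2421 and 1732 CPM in hearts. Set against 14 weeks, where only 2 fibroblast libraries exist, the difference was larger at 4 weeks for 59 genes (0.286%) and smaller for 84 (0.407%). Macrophage genes made up 6 of the larger ones, and their sum in fibroblasts was 545.4 CPM at 4 weeks and 59.0 at 14 weeks. Comparisons at different ages share the 4-week libraries.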

How the data were processed

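RNA was sequenced on polyA libraries from 3 fibroblast and 3 whole heart samples at 4 weeks. The authors aligned single-end reads to mm10 with STAR 2.5.3a and deposited raw counts per gene symbol for each tissue in a separate table, without normalization. The annotation and the strand setting of the counts are not given in the sources used here. Tables were joined by symbol, and 95.3% of symbols matched 1 gene of the GENCODE annotation used for positions and exon lengths.

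Counts of the 6 libraries were fitted with edgeR 4.0.16 (R 4.3.3), using filterByExpr, TMM scaling, tissue as the only factor and the quasi-likelihood F test with Benjamini-Hochberg adjustment. The study's own tests used DESeq2, which was run here as an alternative (1.42.0). CPM are TMM-scaled, and RPKM divide CPM by exon length. CPM at 4 weeks alone used the TMM factors of the 6 libraries. CPM set against other ages used factors of all 27, so values of the same 4-week libraries differ slightly between the passages. Log2 fold changes used the default prior count of edgeR's fit. A prior count of 2 entered only the log2 CPM from which libraries were correlated with each other. The biological coefficient of variation was 68.2%. Differences between ages were interactions over all 27 libraries. Replicates differed by more than sampling noise. Genes named are the 3 markers, the 12 largest differences each way among protein-coding genes with at least 10 CPM and no overlap, up to 4 members of each list with the highest levels, members called against most of their list, the pairs, the largest interactions and the 10 highest RPKM, and other names were added after their values were seen. The members and lists were chosen with earlier results of these data known. Values of 1 gene pair and of a few other genes are not reported here, though every fit and count includes them. Scripts were tested on simulated data.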

Additional observations from a re-analysis of the deposited data

Results flagged for a closer look

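The difference between fibroblasts and whole heart at 4 weeks differed from that at postnatal day 1 by an interaction test (edgeR, 27 libraries) for 6 list genes that were named by size. For C3 the log2 difference was larger by 6.84 (SE 0.47, edgeR adjusted p = 4.0e-09), with fibroblast means of 8.64 CPM at postnatal day 1 and 902.4 CPM at 4 weeks against heart means of 63.6 and 57.9 CPM. Col4a6 was larger by 4.85 (edgeR adjusted p = 4.7e-07), at 5.42 and 65.4 CPM in fibroblasts and 6.49 and 2.71 CPM in hearts. Efemp1, a fibulin of the elastic fibre, was larger by 4.70 (edgeR adjusted p = 3.3e-06), at 2.13 and 41.1 CPM in fibroblasts and 5.62 and 4.20 CPM in hearts. In each of these the fibroblast level moved more than the heart level did.

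On the other side stood 3 channel genes. Kcnd3, a potassium channel, had an interaction of -9.83 (edgeR adjusted p = 8.0e-05), from 1.54 CPM to 1 count in fibroblasts and from 3.57 to 12.1 CPM in hearts. Hcn4, the pacemaker channel, had an interaction of -7.13 (edgeR adjusted p = 0.00919), at 9.43 and 0.307 CPM in fibroblasts and 5.02 and 23.1 CPM in hearts. Kcnv2, a modifier subunit, had an interaction of -7.23 (edgeR adjusted p = 0.0109), with 1 count in hearts at postnatal day 1 and 4.36 CPM at 4 weeks. Fits of Kcnd3 and Kcnv2 depend on a group with 1 count. For Kcnv2 the interaction no longer passed with libraries of the 2 ages only (-7.32, edgeR adjusted p = 0.145), nor with the replicate block added to that fit (-4.63, 0.675).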

How the results depend on the processing

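Counts of genes higher and lower at 4 weeks stayed within 1.5 times of the reported values in every alternative run, with 3670 and 3741 by DESeq2, 3077 and 2972 with no filter, 3029 and 2972 when 10 counts were asked of every library, and 2604 to 3026 and 2674 to 3186 when each library was left out in turn. Without the third fibroblast library and the second heart together, an alternative chosen after seeing the data, they were 2918 and 3245. Numbers of genes with an interaction depended on more choices. Against postnatal day 1, 657 larger and 818 smaller became 1085 and 1733 by DESeq2, 1668 and 443 by library size alone, and 373 and 574 with libraries of those 2 ages only. Leaving out single libraries gave 387 to 579 larger, the lowest without the second heart and 433 without the third, and 726 to 970 smaller. Against 14 weeks, 59 and 84 became 385 and 353 by DESeq2 and 36 and 228 by library size alone. Single libraries left out gave 23 to 85 larger and 44 to 151 smaller, with 23 and 44 without the third heart, 54 smaller without the first fibroblast library and 151 without the third. The cause was not tested. Deviations of same-numbered fibroblasts and hearts correlated at -0.042, 0.019 and 0.005, and no pairing was used in the main fit. These correlations do not show whether samples shared animals. The paper states that fibroblasts and their hearts of origin were both sequenced, though the labels do not link them. With the replicate number as a block, 2839 genes were higher and 2833 lower, and in the fit of 2 ages with that block 190 interactions were larger and 330 smaller. The macrophage share of counts in fibroblasts minus that in hearts ranged from -0.01426 to 0.003911 percentage points when single libraries were left out, above 0 without the first fibroblast library and without the third heart (0.0003721). The uncalled Cd79a (0.43) turned to -5.10 with the replicate block, and ranged from -7.53 (without the third fibroblast library) to 1.85 when single libraries were left out, with -0.16 without the third heart. Single genes could differ widely between replicates. In fibroblasts 8.92% of tested genes had 0 counts in at least 1 library and at least 30 in another, and in hearts 8%.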
